A study of Mus musculus and synthetic construct with 30 samples.

Results

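A list of genes of the nephron progenitor, the stem-like cell of the embryonic kidney that gives rise to the nephron, was followed through the RNA-seq libraries of the *Peril* knockout. They were chosen by symbol as known progenitor genes, with no measured value in the rule, and are *Six2*, *Cited1*, *Osr1*, *Eya1*, *Sall1*, *Wt1*, *Pax2*, *Meox1*, *Crym* and *Gdnf*, 10 of the 26759 genes in each library file. All 10 were found in the files, each in a single row.

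The study deleted *Peril*, a long intergenic non-coding RNA gene near *Sox2*, and compared wild-type (WT) and knockout (KO) samples of E14.5 kidney, of the microdissected ganglionic eminence and olfactory bulb of E14.5 embryos (GE/OB, part of the forebrain) and of murine embryonic stem cells (mESC). In the KO a *LacZ* reporter behind the *Peril* promoter takes the place of the transcribed gene. The mice and the mESC carry the strain Periltm1.1Vlcg on a mixed C57BL/6J and 129S6 background (N3-C57BL/6J, with no Neo cassette), and the WT samples are littermates or clones without the deletion. The kidneys came from 1 litter (litter 43), with WT embryos 1 (male), 3 (female) and 8 (male) and KO embryos 7 (male), 9 (female) and 10 (female). The GE/OB libraries came from litter 46, with WT embryos 1 and 3, which are male, and KO embryos 2 and 7, which are female, so that sex and genotype cannot be told apart there. The mESC were grown in 2i medium on feeder cells, and the 3 WT wells come from a single male clone and the 3 KO wells from another, so that wells measure the spread within a clone. The KO clone also carries a later passage number in the study's sample sheet, and tissue and litter cannot be told apart in the comparison of kidney with GE/OB.

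Summed counts ranged from 17544707 to 45924887 per library. *LacZ* stood at 69.6 to 73.7 TPM (transcript abundance scaled to length and library total) in KO mESC and 44.4 to 45.8 in KO GE/OB, against at most 0.1 in the WT libraries of both. In the kidney it was at 0.08 to 0.15 TPM in KO and 0.09 to 0.47 in WT, and *Peril* was at 0 in all kidneys and GE/OB, so neither gene checks the genotype labels of the kidney libraries. In mESC *Peril* was at 0.33 to 0.57 TPM in WT and 0.16 to 0.24 in KO.

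Nephron progenitors form a cap of mesenchyme around each tip of the branching ureteric bud. They divide to renew themselves and, on a Wnt signal from the bud, turn into the epithelium of the nephron. In turn they secrete Gdnf, which binds the receptor Ret on the bud and keeps it branching. *Six2* encodes the homeobox factor that holds cells in the progenitor state, *Cited1* a transcriptional coactivator of the least differentiated cap cells, and *Osr1* a zinc finger factor of the early kidney mesoderm. *Eya1*, a coactivator that partners *Six2* and its relatives, *Sall1*, a zinc finger factor, *Pax2*, a paired box factor, and *Wt1*, a zinc finger factor, are each needed for the kidney to form. *Meox1*, a homeobox gene, and *Crym*, which encodes a thyroid hormone binding protein, are used as markers of the cap. Some of these genes mark other cells as well. *Pax2* is also made in the ureteric bud and *Wt1* in podocytes, the filter cells of the glomerulus.

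The promoters of *Six2*, *Cited1* and *Gdnf*, which were nearly silent or low outside the kidney, are shown beside that of *Sall1*, which was read in all tissues. Each run is the 250 bases before the most upstream RefSeq start (GRCm38.p6), written 5′ to 3′ on the gene's strand. Capitals mark matches, on either strand, to TATAAA (the TATA box), to CCAAT (the CCAAT box), to GGGCGG (the GC box), to CACCTG (an E-box) or to GTGGGNG (a GC-rich zinc finger motif).
*Six2*, chr17:85688255-85688504, minus strand: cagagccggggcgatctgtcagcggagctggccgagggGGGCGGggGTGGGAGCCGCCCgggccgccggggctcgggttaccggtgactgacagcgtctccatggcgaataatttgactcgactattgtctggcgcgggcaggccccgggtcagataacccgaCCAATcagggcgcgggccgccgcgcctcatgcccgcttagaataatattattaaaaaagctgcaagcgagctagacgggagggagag
*Cited1*, chrX:102252182-102252431, minus strand: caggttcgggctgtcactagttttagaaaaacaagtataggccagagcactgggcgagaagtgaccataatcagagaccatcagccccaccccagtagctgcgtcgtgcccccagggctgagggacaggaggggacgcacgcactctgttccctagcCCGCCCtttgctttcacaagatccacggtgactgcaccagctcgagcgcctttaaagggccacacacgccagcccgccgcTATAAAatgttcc
*Gdnf*, chr15:7809798-7810047, plus strand: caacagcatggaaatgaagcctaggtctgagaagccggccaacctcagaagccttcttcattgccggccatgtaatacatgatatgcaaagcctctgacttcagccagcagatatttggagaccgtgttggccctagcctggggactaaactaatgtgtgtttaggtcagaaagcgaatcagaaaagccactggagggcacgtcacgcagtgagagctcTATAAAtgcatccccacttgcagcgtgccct
*Sall1*, chr8:89044163-89044412, minus strand: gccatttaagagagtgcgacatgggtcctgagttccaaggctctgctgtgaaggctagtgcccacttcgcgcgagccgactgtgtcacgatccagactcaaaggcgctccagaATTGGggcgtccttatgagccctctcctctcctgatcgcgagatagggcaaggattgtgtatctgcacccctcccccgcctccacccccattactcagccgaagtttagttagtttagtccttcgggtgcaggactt
Windows were at hand for 5 members with 12 starts in all, the fifth gene being *Pax2*. The *Six2* window held 2 GGGCGG matches, 1 CCAAT and 1 GTGGGNG, the last directly followed by the second GGGCGG match on the other strand. *Cited1* held TATAAA and GGGCGG once each, *Gdnf* TATAAA once and *Sall1* CCAAT once. Of 32851 promoter windows of the same length, 12.4% held TATAAA, 33.8% CCAAT, 32.7% GGGCGG, 17.2% CACCTG and 28.1% GTGGGNG. GC content was 64.8% for *Six2*, 58.0% for *Cited1*, 50.8% for *Gdnf* and 56.4% for *Sall1*, against a median of 52.4%. A match describes the letters only.

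Levels are given in TPM, which corrects for transcript length, so that genes can be set against each other. *Cited1* led in the kidney with 117.2 ± 14.0 TPM (SD, n = 6, WT and KO embryos), at rank 961 of the 26759 genes by mean TPM. *Six2* followed with 106.0 ± 9.27, *Crym* with 103.9 ± 7.94 and *Wt1* with 97.5 ± 7.34. *Sall1* was at 76.6 ± 6.73 and *Pax2* at 45.8 ± 6.94. *Meox1* (34.9 ± 4.50), *Eya1* (34.5 ± 3.48), *Osr1* (28.0 ± 4.41) and *Gdnf* (26.0 ± 3.41, rank 4567) closed the order. The secreted ligand was thus the lowest of the 10 by mean TPM, although *Osr1* was above it in only 3 of 6 kidneys. Of the 9 pairs of neighbours in this order, the ranges over the 6 kidneys were apart for *Wt1* and *Sall1* and for *Sall1* and *Pax2*. The other 7 pairs overlapped, although *Cited1* was above *Six2* in 6 of 6 kidneys and *Pax2* above *Meox1* in 6 of 6.

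Outside the kidney the 10 genes fell into those that were still read and those near 0. *Sall1* reached 41.0 to 53.3 TPM in the 4 GE/OB libraries and 64.7 to 80.0 in the 6 mESC libraries. *Eya1* was at 3.08 to 4.26 in GE/OB and 8.25 to 10.7 in mESC. *Cited1* was at 4.87 to 5.48 in GE/OB and 1.09 to 2.37 in mESC, and *Crym* at 0.66 to 1.52 and 0.80 to 1.22. The remaining 6 genes stayed below 0.5 TPM in every library of both. *Osr1* had no count in any of these 10 libraries, and *Gdnf* had none in WT mESC and 1 count in all KO mESC.

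**Figure D1:**
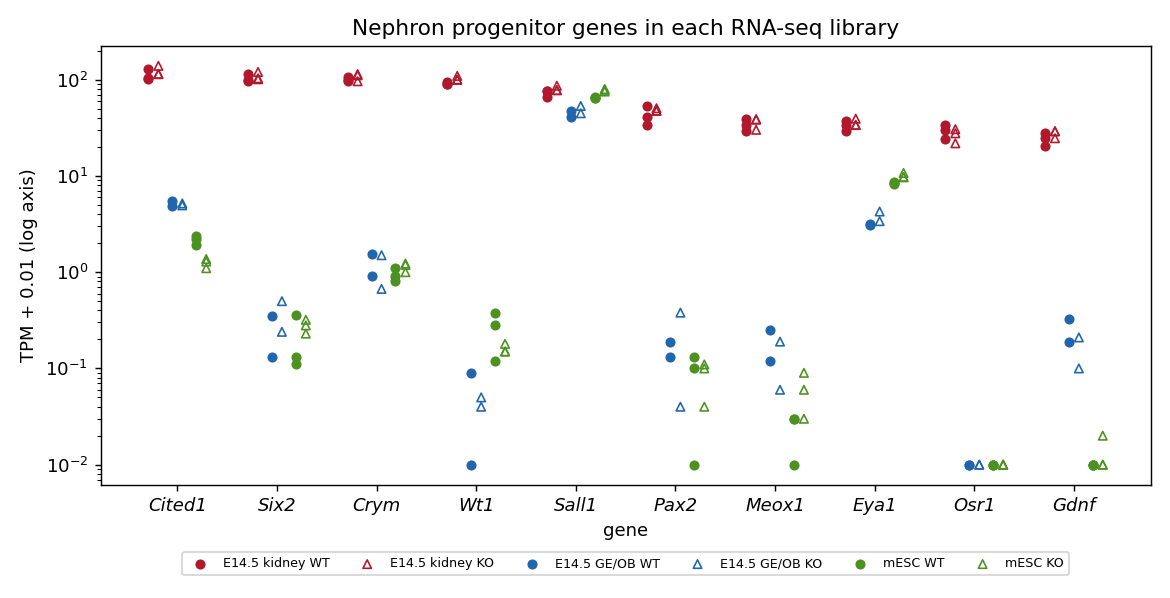
TPM + 0.01 on a log axis for each gene in the 6 kidney, 4 GE/OB and 6 mESC libraries, with WT as filled circles and KO as open triangles. The kidney points of every gene lie above 20 TPM, and those of GE/OB and mESC come near them for *Sall1* alone.

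The first question was how much of each gene's RNA the kidney held beyond the forebrain. All 10 genes were higher in WT kidney than in WT GE/OB with the quasi-likelihood test of edgeR (Benjamini-Hochberg adjusted p under 0.05 over 17459 tested genes). In this contrast 40.6% of all tested genes were higher and 37.9% lower, so a call by itself is common. The median log2 fold change of the 10 was 7.71, against 0.04 over all tested genes, and stayed at 7.71 with *Osr1* at its lower bound. Fold changes of the fit and levels in TPM do not share a scale in this contrast. Over the 12083 tested genes with at least 1 TPM in both groups, the median log2 fold change was 0.07 in the fit and −0.57 in TPM, and the fit lay 0.63 above TPM in the median. Of the 7080 genes called higher, 1881 were not higher in mean TPM, whereas all 10 progenitor genes were higher on both scales. Against mESC the scales lay 0.04 apart, with the fit below. *Six2*, *Osr1*, *Wt1*, *Pax2*, *Meox1* and *Gdnf* were over the minimum of the filter on low counts in at most 1 GE/OB library each, and *Osr1*, *Wt1*, *Pax2*, *Meox1* and *Gdnf* in no mESC library. These genes entered the test through the kidney, and all 10 were listed as known progenitor genes of the kidney. Neither their count nor the size of their median fold change is thus evidence of its own, against GE/OB or mESC.

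*Six2* was at 114.6, 97.2 and 99.3 TPM in WT kidneys 1, 3 and 8 and at 0.12 and 0.34 in WT GE/OB 1 and 3. The groups lay far apart, with a log2 fold change of 9.53 (SE 0.26, adjusted p = 9.06e-15). It was 8.90 without WT GE/OB 1 and 10.58 without WT GE/OB 3. *Six2* rested on 8.11 expected counts in WT GE/OB. In counts scaled to the library total the ratio was 720.9, with a 95% counting interval of 370.8 to 1693. *Osr1* was at 30.3, 23.99 and 33.6 TPM in the kidneys and at 0 in GE/OB, at least 505-fold higher in CPM (counts scaled to the library total) when GE/OB is set at a floor of 3 counts over the group. *Wt1* was at 95.01, 89.8 and 90.6 TPM against 1 count in the 2 GE/OB libraries, a ratio of 4986 in CPM with a 95% counting interval of 894.6 to 196900. The interval is that wide because it rests on a single count, and it covers counting error only. *Pax2* (log2 fold change 9.89, SE 0.31) and *Meox1* (8.18, SE 0.29; 8.91 without WT GE/OB 1) also differed by over 8 on the log2 scale. *Pax2* rested on 4 counts in WT GE/OB (ratio 963.4 in CPM, 95% counting interval 376.1 to 3537). *Meox1* rested on 7 (287.9, 139.6 to 716.6). For such genes the SE of the fit is smaller than counting error. *Gdnf* was higher by 7.23 (SE 0.24) and *Crym* by 6.96 (SE 0.19). The coactivators *Cited1* (5.04, SE 0.15) and *Eya1* (3.97, SE 0.12) differed less, as both were read in GE/OB. The smallest difference was that of *Sall1*, with 76.5, 75.5 and 65.5 TPM in the kidneys against 47.4 and 41.0 in GE/OB. Its groups did not overlap, and its log2 fold change was 1.34 (SE 0.082, adjusted p = 1.53e-10), a 2.54-fold difference in the fit against 1.64-fold in mean TPM.

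Against WT mESC, 9 of the 10 genes were higher in WT kidney, where 44.1% of all tested genes were higher and 40.2% lower. The median log2 fold change was 8.84, against 0.08 over all genes, and stayed there with the genes without counts at their bounds. *Osr1* was at least 1386-fold higher in CPM and *Gdnf* at least 2185-fold, both against a floor of 3 counts over the 3 wells. *Meox1* rested on 2 counts in mESC, with a ratio of 2767 (95% counting interval 765.5 to 22860). *Pax2* (log2 fold change 10.66, SE 0.26), *Six2* (8.98, SE 0.20; 9.93 without WT well 3) and *Wt1* (8.71, SE 0.12) followed, then *Crym* (6.70, SE 0.15) and *Cited1* (5.64, SE 0.13). Here too the SE of the fit is smaller than counting error where counts are few. *Pax2* rested on 5 counts in WT mESC (ratio 2116 in CPM, 95% counting interval 906.5 to 6520) and *Wt1* on 27 (507.0, 348.3 to 769.7). *Eya1*, at 8.25 to 8.65 TPM in the WT wells, was higher in the kidney by 1.91 (SE 0.083). *Sall1* was not called. WT mESC held 65.53, 65.16 and 64.65 TPM of it in wells 1, 2 and 3. Well 1 lay just above the lowest WT kidney (65.51) and the other wells just below it. The log2 fold change was 0.11 (95% interval −0.04 to 0.26, adjusted p = 0.146). With the KO libraries of both in place of WT it was −0.0019.

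The relatives of these genes did not all follow them. The counts of this list and of those below stand beside the shares over all tested genes. In WT kidney 40.6% were higher and 37.9% lower than in WT GE/OB, and 44.1% and 40.2% than in WT mESC. Of 20 listed paralogs, 17 were tested, and 13 were higher and 4 lower in WT kidney than in WT GE/OB. *Sall2* and *Eya3*, counted as higher, were not higher in TPM. *Pax8*, which acts beside *Pax2*, was at 21.8 TPM in WT kidney against 1 count in WT GE/OB, and *Meox2* at 10.9 TPM against 2 counts. *Eya4* was higher by 4.22 on the log2 scale (SE 0.21) and *Six4* by 2.97 (SE 0.17). *Six3*, a homeobox factor of the forebrain, was lower by −7.28 (SE 0.48; −6.50 without WT kidney 1, and with no count left in WT kidney without embryo 3), *Sall3* by −4.98 (SE 0.23; −5.59 without WT kidney 3), *Sall4* by −2.41 (SE 0.28) and *Cited2* by −0.26 (SE 0.076). Against mESC, 10 paralogs were higher and 5 lower. *Meox2* (7.80), *Eya4* (9.27), *Eya2* (7.18) and *Sall2* (4.04) were higher. *Sall4*, a zinc finger factor of pluripotent cells, was at 131.3 TPM in WT mESC and 0.17 in WT kidney, lower by −9.90 (SE 0.14), and *Six4* (−2.30), *Sall3* (−4.21; −4.81 without WT kidney 3) and *Eya3* (−0.88) were among the others that were lower.

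Other genes of the cap mesenchyme were mostly high in the kidney. Of 16 such genes, 13 were higher and 2 lower than in GE/OB, and 12 higher and 4 lower than in mESC. *Dach1*, counted as higher than in GE/OB, was not higher in TPM. *Hoxd11* and *Hoxa11*, the Hox factors that act with *Six2* in the cap, were at 91.8 and 41.7 TPM in WT kidney and at 0 in GE/OB. *Capn6*, a calpain-like gene, was at 210.8 TPM and higher than in GE/OB by 6.07 (SE 0.19), and the forkhead factor *Foxc2* by 8.89 (SE 0.27; 7.99 without WT GE/OB 3, and with no count left in WT GE/OB without embryo 1). *Lin28b*, an RNA-binding protein of early cells, was lower in the kidney than in GE/OB (−1.63, SE 0.10) and mESC (−2.06, SE 0.093), and *Dpf3* was lower than in GE/OB (−0.73, SE 0.19). *Six4* and *Mycn* (−1.41, SE 0.06) were also lower than in mESC.

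Of 12 genes of Gdnf and Ret signalling, which hold the receptor, its targets and the modulators of *Gdnf*, 10 were higher and 1 lower than in GE/OB, and likewise than in mESC. The coreceptor *Gfra1* was at 48.3 TPM in WT kidney and 0.06 in WT mESC, higher by 10.61 (SE 0.21), and *Robo2*, the Slit receptor that limits where *Gdnf* is made, by 9.79 (SE 0.24). *Foxc1* was higher than in GE/OB by 4.88 (SE 0.15), the Ret target *Etv4* by 4.62 (SE 0.16) and the feedback inhibitor *Spry1* by 2.37 (SE 0.10). *Gata3* was at 10.6 TPM against 2 counts in WT GE/OB. *Foxc1* and *Etv4* were also higher than in mESC, by 9.70 (SE 0.19; 10.68 without WT well 1) and 3.96 (SE 0.12). The called exceptions were the Bmp antagonist *Grem1*, lower than in GE/OB by −2.37 (SE 0.39), and *Etv5*, lower than in mESC by −2.31 (SE 0.068).

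Of the 12 ligands and receptors that act on progenitors, 11 were higher and 0 lower in both comparisons. Of these *Fgfr2* was at 48.4 TPM in WT kidney and 48.7 in WT GE/OB, so that it was higher in the fit and not in TPM. *Bmp7*, which the cap makes and answers to, was higher than in GE/OB by 4.94 (SE 0.14) and than in mESC by 3.14 (SE 0.099). *Wnt9b*, the bud signal that starts nephron formation, was at 3.54 TPM in WT kidney against 3 counts in WT GE/OB. *Npnt* and *Rspo1* were higher than in GE/OB by 3.15 (SE 0.17) and 4.85 (SE 0.29; 4.16 without WT GE/OB 1 and 6.15 without WT GE/OB 3). *Fgfr2* (3.49, SE 0.11), *Rspo3* (6.44, SE 0.25) and *Npnt* (4.12, SE 0.15) were higher than in mESC. The early nephron genes, which turn on as progenitors leave the cap, had 13 higher and 3 lower of 16 against GE/OB. *Jag1* (11.3 TPM in WT kidney and 13.6 in WT GE/OB) and *Cdh6* (9.86 and 11.8) are among the 13 in the fit but were lower in TPM. *Pax8*, *Dkk1* (6.19, SE 0.47) and *Ccnd1* (1.45, SE 0.12) were higher, and *Pou3f3* (−4.00, SE 0.12), *Dll1* (−2.73, SE 0.23) and *Cdh4* (−1.95, SE 0.14), which neural cells also use, were lower. Against mESC 15 were higher. *Lhx1* was at 10.6 TPM in WT kidney against 1 count in WT mESC. Also higher were *Cdh6* (5.53, SE 0.19), *Sfrp2* (5.15, SE 0.21) and *Pou3f3* (4.46, SE 0.20), and *Jag1* was lower (−0.37, SE 0.15). That call was lost without any single WT library other than kidney 3 (adjusted p 0.0506 to 0.148), and the value turned to 0.13 with the KO libraries in place of WT.

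Markers of other cells were read in the same kidneys, as a whole organ holds more than its cap. All 12 stroma markers, 10 of 12 ureteric bud markers and all 7 endothelial markers were higher than in GE/OB, and all 10 forebrain markers were lower. Of all tested genes 40.6% were higher and 37.9% lower. Not every kidney list was high, as 1 of 7 podocyte markers was higher and 3 were lower. Of 5 tested proximal tubule markers 2 were higher and 1 lower, and of 7 gonad and adrenal markers 1 was higher and 4 were lower. The endothelial markers *Esam* (10.3 TPM in WT kidney and 11.7 in WT GE/OB) and *Kdr* (10.2 and 11.6) were higher in the fit but lower in TPM. In bulk samples fewer cells of a type and less RNA per cell cannot be told apart.

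The second question was whether deleting *Peril* changed the progenitor genes in the kidney, where neither *Peril* nor *LacZ* was above 0.5 TPM. None of the 10 was called between the 3 KO and 3 WT kidneys with edgeR, and none had an unadjusted p under 0.05. DESeq2 and every other alternative, including sex as a covariate, called 0 as well. Of all tested genes 0.223% were called (39 genes), and 1327 had an unadjusted p under 0.05. The median log2 fold change of the 10 was 0.04, against 0.00 over all tested genes.

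*Six2* was at 114.6, 97.2 and 99.3 TPM in WT kidneys 1, 3 and 8 and at 103.4, 120.2 and 101.0 in KO kidneys 7, 9 and 10. The groups overlapped, and the log2 fold change was −0.02 (95% interval −0.24 to 0.20). *Cited1* was at 127.9, 105.3 and 101.9 TPM in WT and 115.2, 139.1 and 114.0 in KO, with a log2 fold change of 0.05 (95% interval −0.14 to 0.24). Here too WT embryo 1 lay within the KO range. *Osr1* was at 30.3, 23.99 and 33.6 TPM in WT and 21.8, 30.6 and 27.7 in KO. It had the largest difference of the 10, −0.21 (95% interval −0.55 to 0.14), with overlapping groups.

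*Eya1* was at 37.3, 33.7 and 29.2 TPM in WT and 33.9, 39.3 and 33.8 in KO (log2 fold change 0.02, 95% interval −0.14 to 0.19). *Pax2* was at 41.4, 53.5 and 34.2 TPM in WT and 50.5, 47.4 and 47.6 in KO (0.09, −0.15 to 0.33). The WT kidneys spread more widely than the KO kidneys for *Pax2*, which overlaps the antisense genes *Gm20395* and *1700039E22Rik* in the annotation. The libraries are not strand-specific, so reads from bases that a gene shares with its antisense partner cannot be told apart. *Meox1* overlaps *Gm11551* on the opposite strand, and *Osr1* overlaps *1700022H16Rik*, which was not among the genes counted. These are overlaps of whole gene spans and not of exons. *Meox1* was at 38.8, 29.0 and 34.1 TPM in WT and 38.8, 38.4 and 30.1 in KO (−0.01, −0.26 to 0.25). *Crym* was at 106.9, 98.9 and 95.9 TPM in WT and 110.9, 114.3 and 96.3 in KO (0.01, −0.19 to 0.20). Its 6 values were the closest together of the 10, the highest being 1.19 times the lowest.

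*Gdnf*, the ligand, was at 27.8, 25.0 and 20.3 TPM in WT and 24.6, 29.1 and 29.1 in KO. Its log2 fold change of 0.10 (95% interval −0.13 to 0.34) was the highest of the 10, and the groups overlapped. *Sall1* was at 76.5, 75.5 and 65.5 TPM in WT and 77.9, 86.5 and 77.8 in KO. *Wt1* was at 95.01, 89.8 and 90.6 TPM in WT and 100.5, 109.5 and 99.7 in KO. For these 2 genes every KO kidney was above every WT kidney in TPM, as was the case for 14.2% of all tested genes. On the scale of the fit, which sets library sizes by the TMM method, their log2 fold changes were 0.08 (95% interval −0.07 to 0.22, adjusted p = 0.856) and 0.07 (−0.06 to 0.20, adjusted p = 0.852). The intervals of all 10 genes lay between −0.55 and 0.34, so a change of 1 on the log2 scale was outside each of them.

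**Figure D2:**
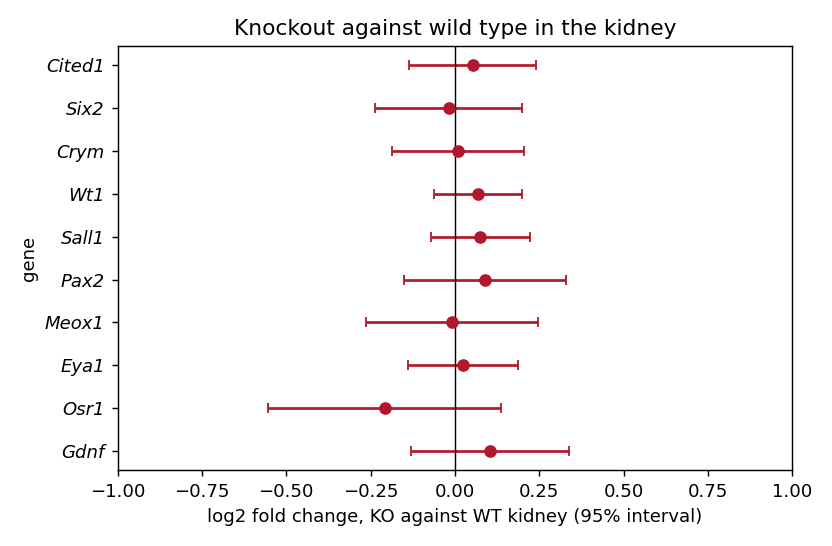
Log2 fold change of KO against WT kidney (3 embryos each) for each gene, with the 95% interval of the edgeR fit as bars. Every interval crosses 0, and the widest is that of *Osr1*, from −0.55 to 0.14.

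The embryos of a genotype also differed among themselves. KO embryo 9 had the highest TPM for 6 of the 10 genes and was above the mean of the 6 kidneys for all 10. WT embryo 8 had the lowest for 6, and WT embryo 1 was above the mean for 7. Summed over the 10 genes, the WT kidneys held 644.4 ± 47.2 TPM (SD, n = 3; 604.6 to 696.5) and the KO kidneys 696.5 ± 51.4 (SD, n = 3; 657.1 to 754.6). The ratio of KO to WT was 1.08, and the ranges overlapped. A ratio above 1 in TPM was not particular to these genes. Over the 12974 tested genes with at least 1 TPM in both groups, the median log2 ratio of KO to WT kidney was 0.083 in TPM and 0.002 in the fit. No member separated the 3 male from the 3 female kidneys.

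**Figure D3:**
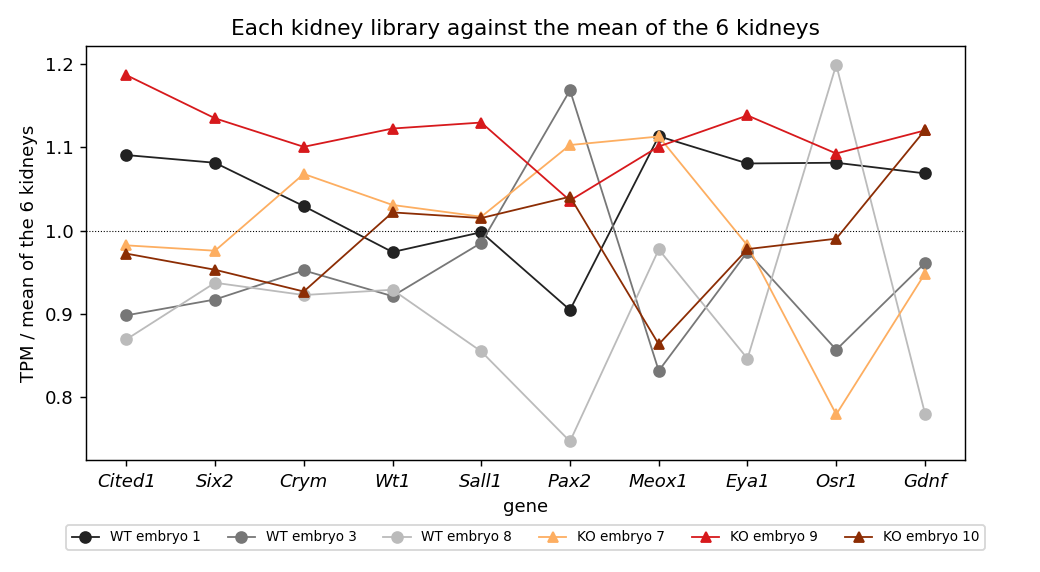
TPM of each gene in each of the 6 kidneys, divided by the mean of the 6, with WT in grey to black circles, KO in coloured triangles and a line joining the values of a library. KO embryo 9 is above 1 for all 10 genes, and WT embryo 8 is highest for *Osr1* and lowest for 6 others.

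Markers of other cells also differed between the same embryos. WT embryo 8, low in most progenitor genes, had the highest summed TPM of stroma markers, 1919 against 1403 to 1510 in the other 5. Summed erythroid markers ranged from 3807 TPM in KO embryo 9 to 10630 in WT embryo 3. KO embryo 9 also had the most progenitor RNA (754.6 TPM), and WT embryo 3 had less (632.0) than any kidney but WT embryo 8. WT embryo 8, with the next lowest erythroid sum (5090), had the least (604.6). Skeletal muscle markers summed to 86.3 to 102.5 TPM in WT and 56.0 to 58.3 in KO. Of 11 tested muscle genes 5 were lower in KO and called, the contractile genes *Mylpf* (log2 fold change −1.92, SE 0.14), *Myh3* (−2.63, SE 0.34), *Acta1* (−2.59, SE 0.34), *Myh8* (−2.07, SE 0.23) and *Actc1* (−1.69, SE 0.22). The part of stroma, erythroid or muscle RNA in the values of the progenitor genes was not tested.

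No gene of the paralog, signalling, other cap, ligand and receptor or early nephron lists was called in the kidney. The early nephron genes had a median log2 fold change of 0.41 and 7 of 16 with an unadjusted p under 0.05, against 1327 of the 17459 genes tested. Chosen after their values were seen, *Pou3f3* had 0.53 (SE 0.12, adjusted p = 0.0941) and *Lhx1* 0.61 (SE 0.16, adjusted p = 0.253), neither past the threshold. Summed over the list, WT embryos 1, 3 and 8 held 325.8, 415.0 and 340.2 TPM and KO embryos 7, 9 and 10 held 441.6, 392.5 and 485.1, with overlapping groups. Unlike for the progenitor genes, KO embryo 9 was the lowest KO kidney. The genes with the highest TPM weigh most in this sum, *Ccnd1* (146.9 TPM in WT kidney, log2 fold change 0.115) and *Sfrp2* (77.8 TPM, −0.06). Neither is among the 7, so the sum says little about those. The median was −0.01 for the paralogs, 0.17 for Gdnf and Ret signalling, 0.06 for the other cap genes and 0.13 for the ligands and receptors, with 2 or 3 genes each at an unadjusted p under 0.05. Podocyte markers, which bear on *Wt1*, summed to 16.9 to 28.9 TPM in WT and 22.2 to 38.8 in KO. Ureteric bud markers, which bear on *Pax2*, summed to 205.4 to 273.6 TPM in WT and 233.5 to 325.1 in KO. Neither part was tested.

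**Figure D4:**
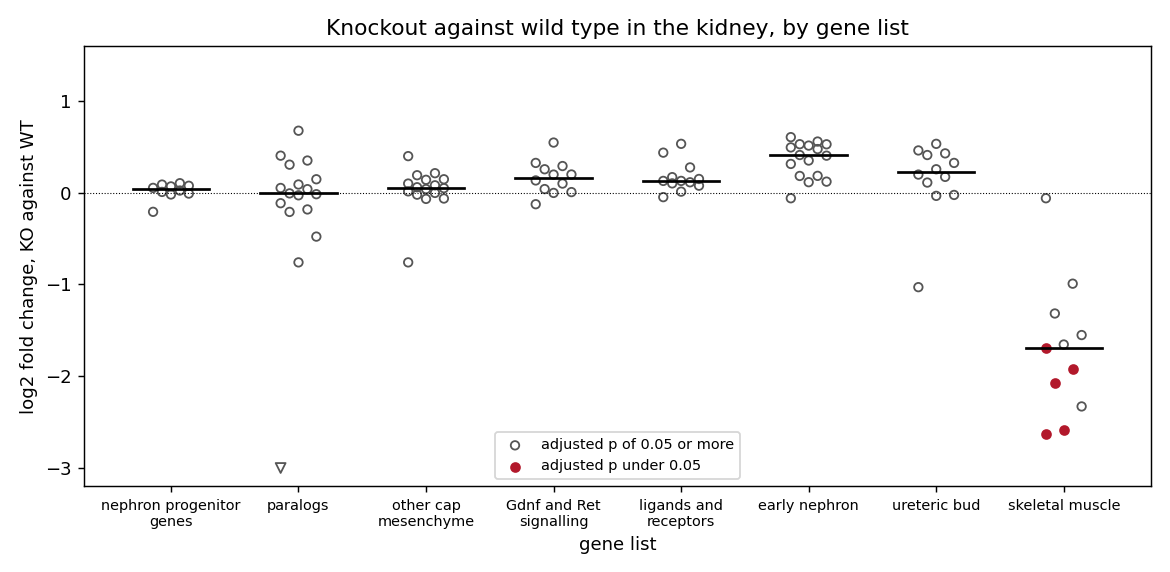
Log2 fold change of KO against WT kidney for each tested gene of 8 lists, with the list's median as a black line and called genes filled. The nephron progenitor genes lie close to 0, the early nephron genes have a median of 0.41, and the called genes are all in the skeletal muscle list. The triangle at the lower edge is *Six3*, beyond the axis, which was at 0.1 TPM in WT and 0 in KO kidneys.

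In GE/OB and mESC a KO effect could be read for *Sall1*, *Eya1*, *Cited1* and *Crym*. In GE/OB none of the 10 genes was called, where 0.0630% of all genes were (11 genes) and 525 had an unadjusted p under 0.05. None of the 10 was among these, and DESeq2 called 0. *Sall1* was at 47.4 and 41.0 TPM in WT and 44.8 and 53.3 in KO (log2 fold change 0.12, SE 0.086). *Eya1* was at 3.12 and 3.08 in WT and 3.38 and 4.26 in KO (0.22, SE 0.14), and *Cited1* at 4.87 and 5.48 against 4.94 and 5.17.

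In mESC *Cited1* fell in the KO clone. The WT wells held 2.22, 2.37 and 1.90 TPM and the KO wells 1.36, 1.09 and 1.28, from 33 to 38 counts per WT library and 9 to 20 per KO library. The groups did not overlap, and the log2 fold change was −0.87 (SE 0.23, adjusted p = 0.0337). In this contrast 4.59% of all tested genes were lower and 2.27% higher. Without KO well 1 the adjusted p was 0.0494, and the call was lost without any other single well, with adjusted p between 0.0555 and 0.120. The same gene was at 101.9 to 139.1 TPM in the kidneys.

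*Sall1* was at 65.5, 65.2 and 64.7 TPM in the WT wells and 75.3, 78.5 and 80.0 in the KO wells. *Eya1* was at 8.44, 8.65 and 8.25 in WT and 9.66, 10.7 and 9.77 in KO. Both were above in every KO well, as were 17.9% of all tested genes, while 13.0% were, like *Cited1*, below in every KO well. Neither was called in the fit over all tissues, with log2 fold changes of 0.19 (SE 0.069, adjusted p = 0.119) and 0.18 (SE 0.085, adjusted p = 0.251). With mESC fitted on its own, where 25.2% of genes were called, *Sall1* (0.23, adjusted p = 0.000137), *Eya1* (0.21, adjusted p = 0.0124) and *Cited1* were called. Since each genotype is 1 clone, clone and genotype cannot be told apart. Of these pathway lists, *Etv4* (1.84, SE 0.12) and the guidance ligand *Slit2* (0.48, SE 0.074) rose in KO mESC, and *Phf19* (−0.62, SE 0.15) and *Lin28b* (−0.32, SE 0.085) fell. Leaving out well 2 or well 3 of either genotype lost the call of *Phf19* (adjusted p 0.0688 to 0.130), and that of *Lin28b* was lost without each single well but KO well 1 (0.0791 to 0.124). Chosen after its values were seen, *Slit2* was above in every KO library of the kidney (27.5 to 29.6 TPM against 19.9 to 24.2). The same held for 14.2% of all tested genes. In GE/OB each KO library was above as well (24.5 and 26.0 against 17.9 and 15.8), but those groups also differ in sex. The share of all genes with that order in GE/OB was not computed. The log2 fold changes of *Slit2* in kidney and GE/OB were 0.29 (adjusted p = 0.176) and 0.52 (adjusted p = 0.0776), neither past the threshold. A test of the difference between tissues did not call *Slit2*, which does not show that its changes were equal.

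**Figure D5:**
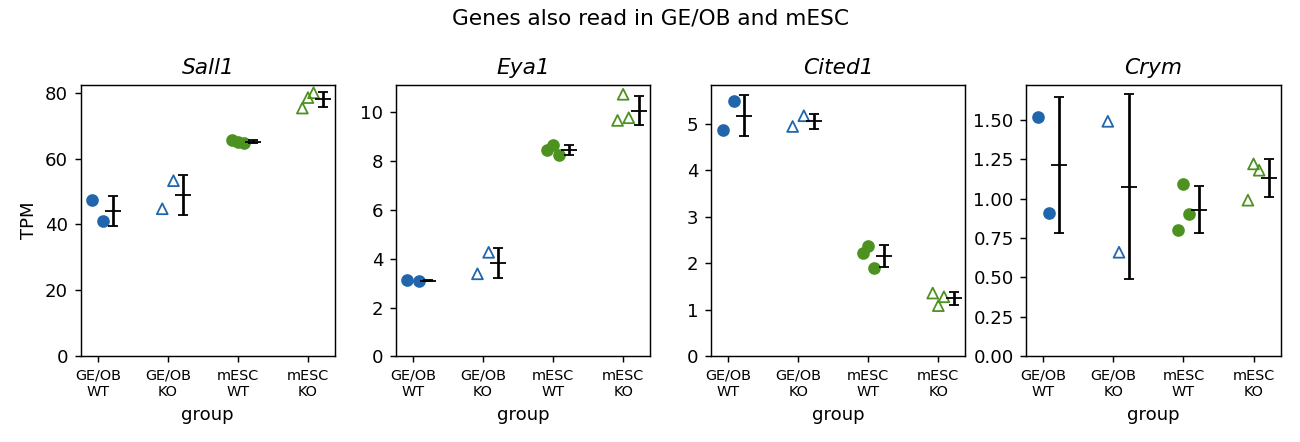
TPM of the 4 genes that were also read outside the kidney, in each GE/OB embryo and mESC well, with bars for the mean ± SD of a group (n = 2 or 3). *Cited1* is lower in the KO wells (1.09 to 1.36) than in the WT wells (1.90 to 2.37), and *Sall1* and *Eya1* are higher in each KO well.

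A test of the difference between KO effects asked whether the kidney departed from the other tissues. It called none of the 10 genes for kidney minus mESC, where 2.24% of all genes were called, or for kidney minus GE/OB, where 0.0344% were. For kidney minus mESC 1 gene had an unadjusted p under 0.05 and for kidney minus GE/OB 0, with DESeq2 calling 1 and 0. The 1 gene was *Cited1*, with a difference of 0.92 on the log2 scale (SE 0.25, adjusted p = 0.0688). DESeq2, which called 5.21% of genes, gave 0.92 with an adjusted p of 0.0496, and edgeR without WT kidney 1 gave 1.01 with 0.0293. Over all alternatives its adjusted p ranged from 0.0293 to 0.182.

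The genes whose pattern over the 16 libraries was most like that of *Six2*, by the root mean square difference of mean-centred log2(TPM + 0.5), were *Hoxa11os* (0.22), *Hoxd11* (0.27), *Hoxa9* (0.30), *Wt1* (0.31) and *Fabp4* (0.36). *Wt1* was the closest member, then *Pax2* (0.53, rank 15) and *Crym* (0.62, rank 21). *Sall1* was the farthest (3.31, rank 4137). *Hoxa11os* is antisense to *Hoxa11* and was read without strand. The points share the step between kidney and the other tissues. Over the 6 kidneys alone, the genes most like the mean of the 10 were *Mboat7*, *Npepps*, *Wrnip1*, *Morc2a* and *Sms*, with differences of 0.013 to 0.018, where a gene with no variation has 0.098. Of the tested genes outside the list, 4338 were closer than 0.098, so the smallest differences are a pick from many over few points. Each of the named genes had a lower mean TPM in the kidney than in GE/OB and in mESC.

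RSEM also gives each gene the mean length of its transcripts, weighted by their abundance, in each library. *Eya1* could be read in all 3 tissues with at least 50 counts and had several transcripts in the files. Its mean length was 3974 ± 41.2 bases in the kidneys (SD, n = 6), 4139 ± 113 in GE/OB (SD, n = 4) and 4043 ± 49.9 in mESC (SD, n = 6). The ranges overlapped, with 3921 to 4029 bases in the kidney, 4012 to 4282 in GE/OB and 3991 to 4130 in mESC. The difference was −164.8 bases against GE/OB (two-sided exact permutation test, p = 0.0286) and −68.9 against mESC (p = 0.0216, same exact test). The test takes the 6 wells as separate samples although they come from 2 clones, and the kidneys come from 1 litter. Adjusted over these 2 comparisons, both exact p-values were 0.0286.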

How the data were processed

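RNA-seq of 16 libraries was used, prepared by the authors with poly(A) selection and no strand marking. The authors aligned reads to mm10 with bowtie2 through RSEM, and each deposited file holds expected counts, TPM and transcript lengths per gene. Expected counts were rounded and fitted with edgeR 4.0.16 in R 4.3.3 (TMM, filterByExpr by group, 1 coefficient per tissue and genotype, quasi-likelihood test). This left 17459 genes, and the Benjamini-Hochberg adjustment ran over all of them. The SE is the size of the log2 fold change over the square root of the F value of that test, and 95% intervals are built from it. For groups with few counts it can be smaller than counting error. The authors' TPM served for levels. The script was tested on simulated data. Replicate numbers of the mESC wells share no more than a number. The members and 17 further gene lists were chosen with earlier results of these data known. Named genes were all members, up to 4 called genes per direction of 5 pathway lists, called genes of any list in the kidney KO contrast, the genes most like *Six2* and overlapping genes. Alternatives covered DESeq2 1.42.0, RLE factors, other filters, an adjusted p under 0.01, KO in place of WT libraries, each tissue on its own, sex, a replicate block and each library left out. Positions are from GENCODE vM21 and promoters from RefSeq. The Hi-C and reporter assay data were not used here. Single values of a few listed genes are not reported here. Python 3.11.15, pandas 2.3.3, scipy 1.17.1 and matplotlib 3.10.9 prepared tables and figures.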

Additional observations from a re-analysis of the deposited data

Results flagged for a closer look

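*Etv4* is an ETS factor that is turned on downstream of Ret in the ureteric bud. It had different log2 fold changes of KO against WT in kidney and mESC (edgeR test of kidney minus mESC, −1.80, SE 0.16, adjusted p = 7.06e-06). It was at 2.72, 4.48 and 3.92 TPM in the WT wells and 14.49, 13.7 and 16.6 in the KO wells, and at 68.6, 59.7 and 53.4 in WT kidneys 1, 3 and 8 against 68.3, 68.7 and 58.1 in KO kidneys 7, 9 and 10. The wells of a genotype come from 1 clone, so clone and deletion cannot be told apart in mESC, and the test takes wells as replicates. The cause was not tested.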

How the results depend on the processing

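The counts of members called between WT kidney and GE/OB (10) and mESC (9), and of members changed by KO in kidney (0) and GE/OB (0) or differing between kidney and GE/OB (0), were equal under every alternative. In KO mESC the 1 call became 0 at an adjusted p under 0.01 and 3 with mESC fitted on its own, and 0 to 1 with a well left out. For kidney minus mESC the 0 became 1 with DESeq2 and 0 to 1 with a library left out. The KO to WT ratio of summed TPM was 1.04 with CPM, 1.07 with the median ratio and 1.04 to 1.13 with a kidney left out.

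Over all genes, the 39 calls in KO kidney became 23 at an adjusted p under 0.01, 72 with DESeq2, 10 with kidney on its own and 20 to 77 with a library left out (77 without WT embryo 1, 20 without KO embryo 10). In GE/OB the 11 became 4, 19, 6 (on its own) and 2 to 7. In mESC the 1198 became 530 at 0.01, 3561 on its own and 596 to 1435 with a well left out. For kidney minus mESC the 391 became 157 at 0.01, 703 with DESeq2 and 214 to 457 with a library left out, and for kidney minus GE/OB the 6 became 15 with DESeq2 and 2 to 9 with a library left out.

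The mESC wells share numbers, but wells of the same number did not deviate together (r of 0.006, 0.016 and 0.045). With that replicate block the calls over all genes were 24 in kidney, 4 in GE/OB and 2 for kidney minus GE/OB, and the adjusted p of *Cited1* in mESC was 0.0475.

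Of 1413 single-gene values under other fits or with a library left out, 1358 kept direction and call, 26 lost the call, 4 gained one and 25 changed sign. Against mESC with KO libraries, *Jag1* became 0.13 and *Sall1* −0.0019, and *Meox1* in KO kidney became 0.082 with sex as a covariate. With a library left out, the log2 fold change in KO kidney ranged from −0.063 to 0.14 for *Cited1*, −0.054 to 0.087 for *Crym*, −0.071 to 0.087 for *Eya1*, −0.12 to 0.11 for *Meox1*, −0.023 to 0.24 for *Pax2* and −0.11 to 0.039 for *Six2*. In KO GE/OB it ranged from −0.13 to 0.048 for *Cited1* and −0.95 to 0.38 for *Crym*, and for kidney minus GE/OB from −0.022 to 0.18 for *Cited1*, −0.37 to 0.96 for *Crym* and −0.16 to 0.070 for *Sall1*. None of these was called. *Eya1* length against GE/OB could not be computed at 200 counts. Of the 5 genes most like *Six2*, 3 were shared with log2(TPM + 1). Chosen after seeing the data, the log2 ratio of TPM + 0.5 was put in place of the fit for 75 tissue differences. They were those of members with counts in both groups and of up to 4 called genes per direction and pathway list, by smallest p. All 75 kept their sign, and 66 moved by more than the spread between replicates. The genes given above as higher than in GE/OB in the fit but not in TPM were not among the 75. Causes of these shifts were not tested.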
